A study of Mus musculus with 16 samples.

Results

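The lysosome and autophagy genes described here are 36 genes for lysosomal hydrolases, lysosomal membrane proteins and the autophagy machinery, followed across mouse kidney RNA. They were taken by symbol from a table of 40879 gene symbols, and all 36 were found, counted and tested among the 14665 genes with enough counts. RNA of 16 kidney libraries was read by QuantSeq, a 3' sequencing method whose reads come from transcript ends next to the poly(A) tail. The mice were male wild-type C57BL/6, in 4 groups. Old + PM (3 libraries) received Palmijihwang-tang and Old + YM (3 libraries) received Yukmijihwang-tang, herbal formulas that were each dosed orally, 100 mg/kg/day for 5 days per week between 19 and 24 months of age. Old (5 libraries) was untreated, at an age that the sources used here do not give, and Young (5 libraries) was 3 months old. A 5-month acclimatization is given for the 3 aged groups, and 1 label passage calls the PM dose a dose of YM. The labels do not say whether each library is a mouse of its own, so the p-values measure only the spread between libraries.

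Lysosomes are acidic organelles in which hydrolases break down proteins, glycans and lipids that arrive by endocytosis or by autophagy. In macroautophagy a membrane closes around cytoplasmic cargo, with LC3 and GABARAP proteins conjugated to it, and the resulting autophagosome fuses with a lysosome. The transcription factor TFEB activates many lysosomal genes through a short DNA element called CLEAR. In the kidney, proximal tubule cells take up filtered protein by endocytosis and depend heavily on this route, and macrophages are also rich in lysosomes.

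Totals ran from 8223008 to 10914515 counts per library, and levels are given as CPM, counts-per-million values on library sizes scaled by TMM. The kidney origin of the RNA was visible in every library: 6 markers of tubule segments other than the proximal tubule summed to 2087 to 3304 CPM, while adrenal cortex and adipocyte markers summed to at most 7.13 and 10.6 CPM. Libraries Old 4, Old 5, Old + PM 3 and Young 5 stood apart from their own groups on the first 2 principal components. Old 5 also had by far the highest summed macrophage markers, 1705 CPM, with 276 to 511 CPM in the other 4 Old libraries. A difference in level in whole-kidney RNA cannot tell fewer cells of a type apart from less RNA per cell.

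Ageing was compared first, Old against Young, by edgeR's quasi-likelihood test with Benjamini-Hochberg adjustment over all tested genes at a threshold of 0.05. Of the 36 genes, 9 passed (25%), beside 13.6% of all genes tested in the same comparison. In Old kidneys Hexa, Scarb2 and Ctsz rose, 3 of 36 beside 6.47% of all genes, and Gusb, Glb1, Atg5, Map1lc3a, Ctsh and Lamp2 fell, 6 of 36 beside 7.13%. The lysosome and autophagy genes did not shift as a block: 18 had a positive and 18 a negative log2 fold change (50% positive, beside 52.6% of all tested genes), and their median was -0.02, against 0.02 over all tested genes. At an unadjusted p under 0.05 there were 16 of the 36 (44.4%), beside 28.1% of all genes.

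**Figure D1:**
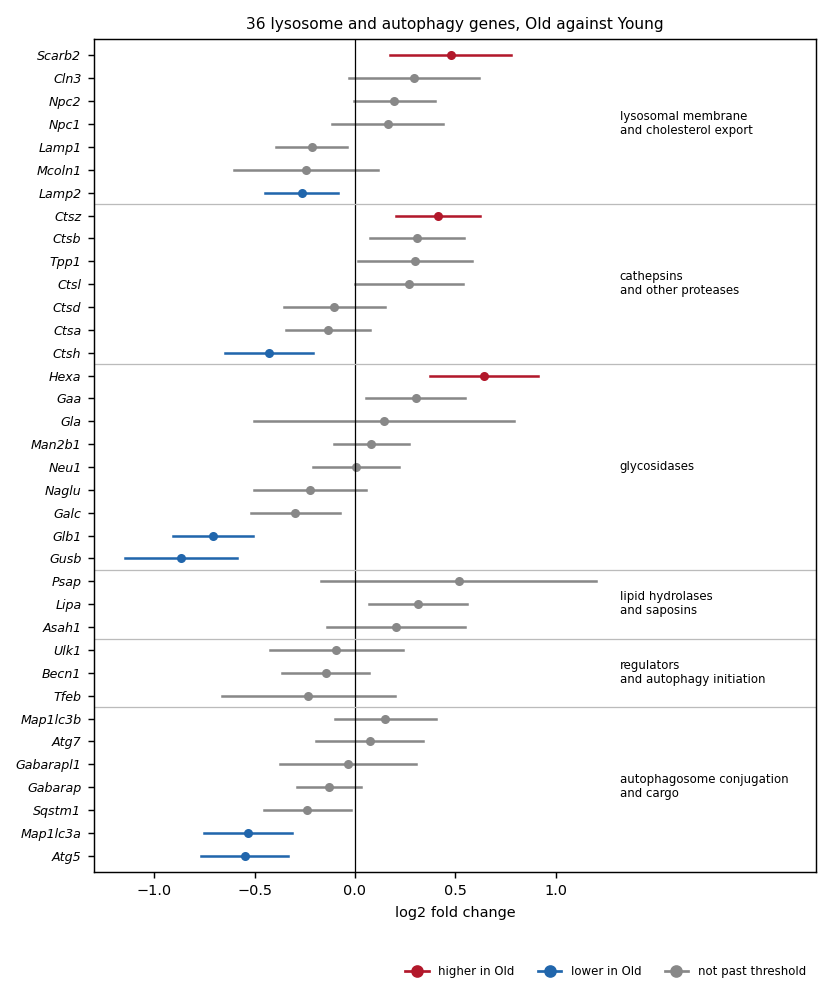
Log2 fold change of each of the 36 genes in Old against Young (horizontal axis), with its 95% confidence interval from the edgeR fit, grouped by role. Red points are the 3 genes higher in Old, blue points the 6 lower in Old and grey points the 27 that did not pass; every role but the lipid hydrolases and the regulators holds a coloured point.

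Glycosidases, the enzymes that remove sugars from glycoproteins and glycolipids, held the largest changes among these genes. Of the 9, Hexa rose and Gusb and Glb1 fell, beside 6.47% higher and 7.13% lower of all tested genes. Gusb, on chromosome 5 from 129989011 to 130003049 on the minus strand (GENCODE M21, GRCm38), encodes beta-glucuronidase, long studied in mouse kidney as an androgen-responsive enzyme. Its level was 18.6, 15.95, 15.5, 14.9 and 19.7 CPM in the Old libraries, against 29.6, 25.3, 27.5, 34.05 and 37.9 CPM in the Young libraries. Every Old library lay below every Young library. The means were 16.9 ± 2.08 CPM in Old and 30.9 ± 5.11 CPM in Young (SD, n = 5 each), a log2 fold change of -0.87 (SE 0.13; edgeR adjusted p = 0.000387), or 0.549 times the Young level.

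Glb1, on chromosome 9 from 114401076 to 114474898 on the plus strand, encodes beta-galactosidase, the enzyme behind the histological stain for senescent cells. It had 84.2, 98.1, 77.7, 84.2 and 69.7 CPM in Old and 140.4, 147, 129, 139 and 121 CPM in Young libraries. The groups did not overlap, and Old 5 was the lowest of all. Mean Glb1 was 82.8 ± 10.4 CPM in Old and 135 ± 10.2 CPM in Young (SD, n = 5 each), with a log2 fold change of -0.71 (SE 0.10; edgeR adjusted p = 0.000113), the smallest adjusted p among the 36 genes.

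Hexa encodes the alpha subunit of beta-hexosaminidase A, which degrades GM2 ganglioside, and lies on chromosome 9 from 59539540 to 59565109 on the plus strand. It moved the other way, with 35.4, 45.9, 40.4, 35.5 and 53.4 CPM in Old against 23.8, 24.9, 26.7, 29.3 and 30.1 CPM in Young libraries. All Old libraries were above all Young ones, and Old 5 was the highest. The log2 fold change was 0.64 (SE 0.13; edgeR adjusted p = 0.00263; mean 42.1 ± 7.61 CPM in Old and 26.95 ± 2.71 CPM in Young, SD, n = 5 each), and 0.54 with an adjusted p of 0.00929 when Old 5 was left out.

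The other 6 glycosidases did not pass. They are Gaa (acid alpha-glucosidase, which degrades glycogen), Gla (alpha-galactosidase A), Galc (galactosylceramidase), Man2b1 (lysosomal alpha-mannosidase), Naglu (a heparan sulfate hydrolase) and Neu1 (a sialidase), with log2 fold changes between -0.30 for Galc and 0.30 for Gaa. Gla was the most thinly counted of the 36 genes, with 17 to 41 counts per library, and its 95% interval of -0.50 to 0.79 on the log2 scale was correspondingly wide. Man2b1 and Neu1 were measured more tightly, with intervals of -0.10 to 0.27 and -0.21 to 0.22.

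Cathepsins and the other proteases, which cut proteins inside the lysosome, split in direction. Ctsz, a carboxypeptidase on chromosome 2 from 174427493 to 174439039 (minus strand), had 108, 112, 93.2, 101 and 129 CPM in Old and 83.5, 81.3, 80.1, 87.2 and 75.6 CPM in Young libraries. The ranges did not overlap, with Old 5 the highest and Young 5 the lowest library. Ctsz rose, with a log2 fold change of 0.41 (SE 0.10; edgeR adjusted p = 0.00938) and means of 109 ± 13.4 CPM in Old and 81.5 ± 4.26 CPM in Young (SD, n = 5 each). It still passed without Old 5 (log2 0.34, adjusted p = 0.0326), and missed the threshold without Old 5 and Young 5 together (adjusted p = 0.0531). Nelfcd, which lies on the opposite strand within 1000 bases of the end of Ctsz, had a log2 fold change of -0.30 (adjusted p = 0.241) and did not pass.

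Ctsh, an aminopeptidase on chromosome 9 from 90054152 to 90076089 (plus strand), fell. Its Old libraries had 183, 247, 201, 251 and 229 CPM, against 287, 323, 267, 345 and 272 CPM in the Young libraries. No Old library reached the lowest Young one. Ctsh averaged 222 ± 29.3 CPM in Old and 299 ± 33.8 CPM in Young (SD, n = 5 each), a log2 fold change of -0.43 (SE 0.11; edgeR adjusted p = 0.0110).

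The endopeptidases Ctsb, Ctsl and Ctsd, the carboxypeptidase Ctsa, which protects beta-galactosidase from degradation, and the tripeptidyl peptidase Tpp1 did not pass. Ctsb had a log2 fold change of 0.31 (edgeR adjusted p = 0.0717), with 389.8, 389, 361, 318 and 476 CPM in Old and 278, 280.3, 336, 297 and 370.1 CPM in Young libraries. Old 4 was the lowest Old library and lay within the Young range. For Tpp1 the value was 0.30 (adjusted p = 0.157), for Ctsl 0.27, for Ctsd -0.10 and for Ctsa -0.13. Without Old 4, Ctsb passed with a log2 fold change of 0.38 and an adjusted p of 0.0244.

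Lysosomal membrane proteins also split. Scarb2, on chromosome 5 from 92441314 to 92506833 (minus strand), encodes LIMP-2, the receptor that carries glucocerebrosidase to the lysosome. It had 106, 88.9, 86.8, 81.1 and 133 CPM in Old against 71.4, 68.4, 67.6, 71.6 and 76.8 CPM in Young libraries. All Old values were above the Young ones, and Old 5 was the highest. The log2 fold change was 0.48 (SE 0.14; edgeR adjusted p = 0.0330; mean 99.02 ± 20.9 CPM in Old and 71.2 ± 3.61 CPM in Young, SD, n = 5 each). This call depended on single libraries: it was lost without Old 5 (log2 0.34, adjusted p = 0.123), without Old 1, and without any one of Young 1 to Young 4.

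Lamp2 and Lamp1 are the abundant glycoproteins that line the lysosomal membrane, and Lamp2 also serves chaperone-mediated autophagy. Lamp2, on chromosome X from 38401357 to 38456454 (minus strand), had 495, 534, 496, 474 and 412 CPM in Old and 589, 531, 566, 601 and 612 CPM in Young libraries. The highest Old library, Old 2, lay just above the lowest Young library, Young 2. Lamp2 passed narrowly, with a log2 fold change of -0.27 (SE 0.09; edgeR adjusted p = 0.0482; mean 482 ± 44.9 CPM in Old and 579.6 ± 32.04 CPM in Young, SD, n = 5 each), and it passed in only 4 of 27 alternative analyses, over which its adjusted p ran from 0.0158 to 0.165.

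Lamp1 showed the reverse, with groups that did not overlap but no call. Its level was 1309, 1468, 1379.9, 1476 and 1255 CPM in Old and 1659.7, 1609, 1581, 1639.7 and 1511 CPM in Young libraries. The difference of -0.22 on the log2 scale (SE 0.09) had an edgeR adjusted p of 0.1003. In all, 10 of the 36 genes had Old and Young ranges that did not overlap (27.8%), beside 9.19% of all tested genes. Of these, 3 were higher in Old, beside 4.21% of all genes, and 7 lower, beside 4.97%. The calcium channel Mcoln1, the Batten disease protein Cln3 and the cholesterol exporters Npc1 and Npc2 did not pass, with log2 fold changes from -0.24 for Mcoln1 to 0.29 for Cln3.

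**Figure D2:**
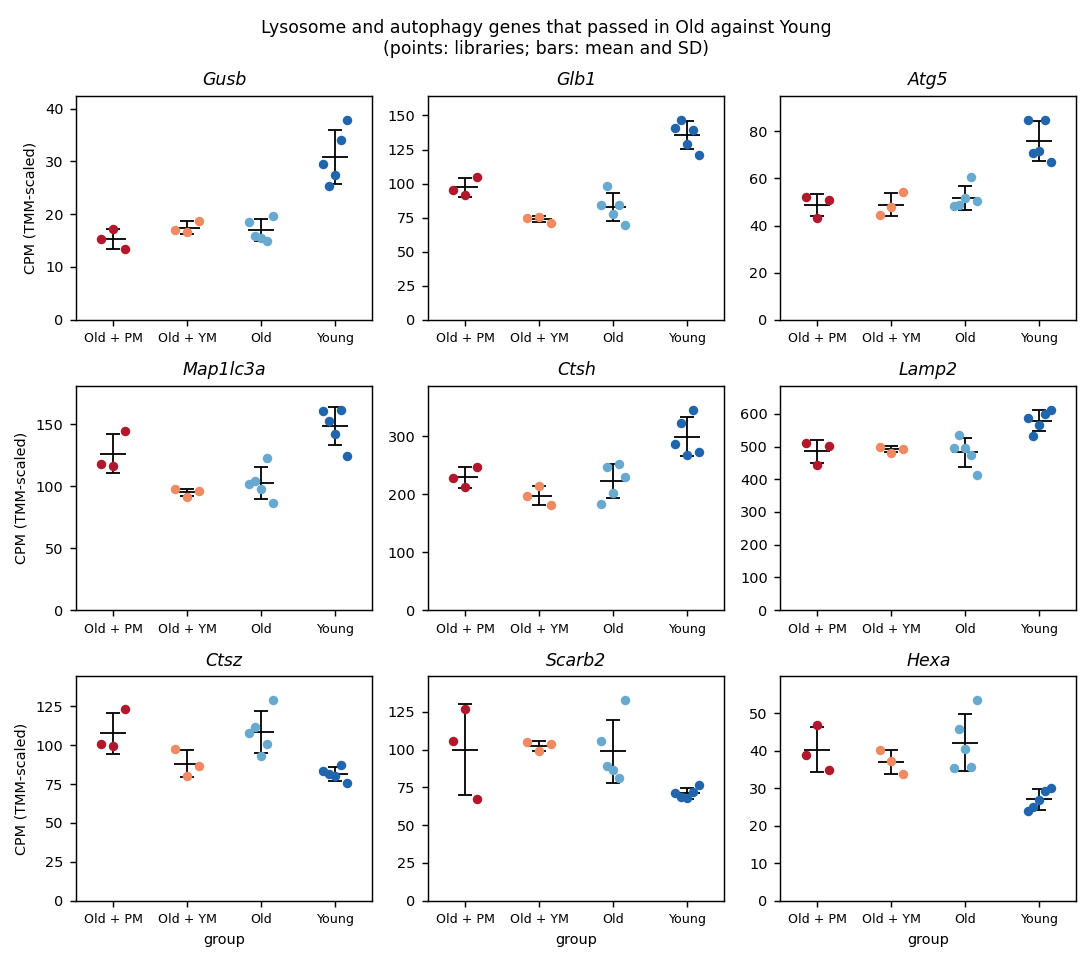
CPM on TMM-scaled library sizes (vertical axes, from 0) of the 9 genes that passed in Old against Young, in the Old + PM, Old + YM, Old and Young libraries (1 point each), with the group mean and SD as bars. Gusb, Glb1, Atg5, Map1lc3a, Ctsh and Lamp2 are lower and Ctsz, Scarb2 and Hexa higher in Old than in Young, and Lamp2 is the gene of the 9 whose Old and Young points overlap.

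The autophagosome machinery had 2 of 7 genes that passed, both lower in Old, beside 7.13% of all tested genes. Atg5, on chromosome 10 from 44268358 to 44364291 (plus strand), encodes the protein that is joined to Atg12 and directs LC3 conjugation. It had 48.3, 48.5, 51.6, 60.6 and 50.3 CPM in Old against 84.7, 70.9, 71.7, 85.01 and 67.1 CPM in Young libraries. Old 4 was the highest Old library and still below every Young library. The log2 fold change was -0.55 (SE 0.10; edgeR adjusted p = 0.00174; mean 51.9 ± 5.08 CPM in Old and 75.9 ± 8.38 CPM in Young, SD, n = 5 each).

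Map1lc3a, on chromosome 2 from 155276297 to 155278073 (plus strand), encodes LC3A, one of the proteins attached to the autophagosome membrane. Its level was 102, 104, 97.5, 123 and 86.5 CPM in Old and 161, 153, 142, 161 and 124 CPM in Young libraries. The ranges met almost exactly at Old 4 and Young 5 without overlapping. Map1lc3a fell, with a log2 fold change of -0.53 (SE 0.10; edgeR adjusted p = 0.00235) and means of 103 ± 13.3 CPM in Old and 148 ± 15.4 CPM in Young (SD, n = 5 each). Pigu, on the opposite strand within 1000 bases of its end, had a log2 fold change of -0.23 (adjusted p = 0.515) and did not pass. The strand setting of the counting is not given, so reads of such neighbours cannot be told apart.

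The other members of its family did not pass. Map1lc3b, which encodes the widely assayed LC3B, had a log2 fold change of 0.15 (edgeR adjusted p = 0.451), Gabarap had -0.13 (0.283) and Gabarapl1 had -0.04 (0.919). Gabarap was measured with a narrow 95% interval of -0.29 to 0.03, while that of Gabarapl1 was -0.37 to 0.30. Sqstm1, the cargo receptor p62, had -0.24 (adjusted p = 0.138), and Atg7, the enzyme that activates LC3 for conjugation, had 0.07 (0.760).

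None of the 3 regulators passed. Tfeb, counted at 8.75, 10.89, 8.34, 12.4 and 7.38 CPM in Old and 14.1, 11.7, 14.1, 8.83 and 7.22 CPM in Young libraries, had a log2 fold change of -0.23 with a 95% interval of -0.66 to 0.20 (edgeR adjusted p = 0.506). Its ranges overlapped widely. The autophagy kinase gene Ulk1 had -0.09 and Becn1, part of the complex that makes the phosphatidylinositol 3-phosphate of forming autophagosomes, had -0.14.

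Among the lipid hydrolases and saposins, acid lipase (Lipa, log2 0.31, edgeR adjusted p = 0.0795), acid ceramidase (Asah1, 0.20, 0.459) and prosaposin (Psap, 0.52, 0.316) did not pass. Psap, the precursor of the saposins that help lipid hydrolases reach their substrates, varied widely between replicates. It had 1792, 2463, 2470.4, 932 and 2499 CPM in Old against 793, 1155, 1517, 1444 and 2187 CPM in Young libraries. Old 4 was far below the other Old libraries and the Young libraries spanned nearly the whole range, which gave a 95% interval of -0.17 to 1.20 on the log2 scale.

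**Figure D3:**
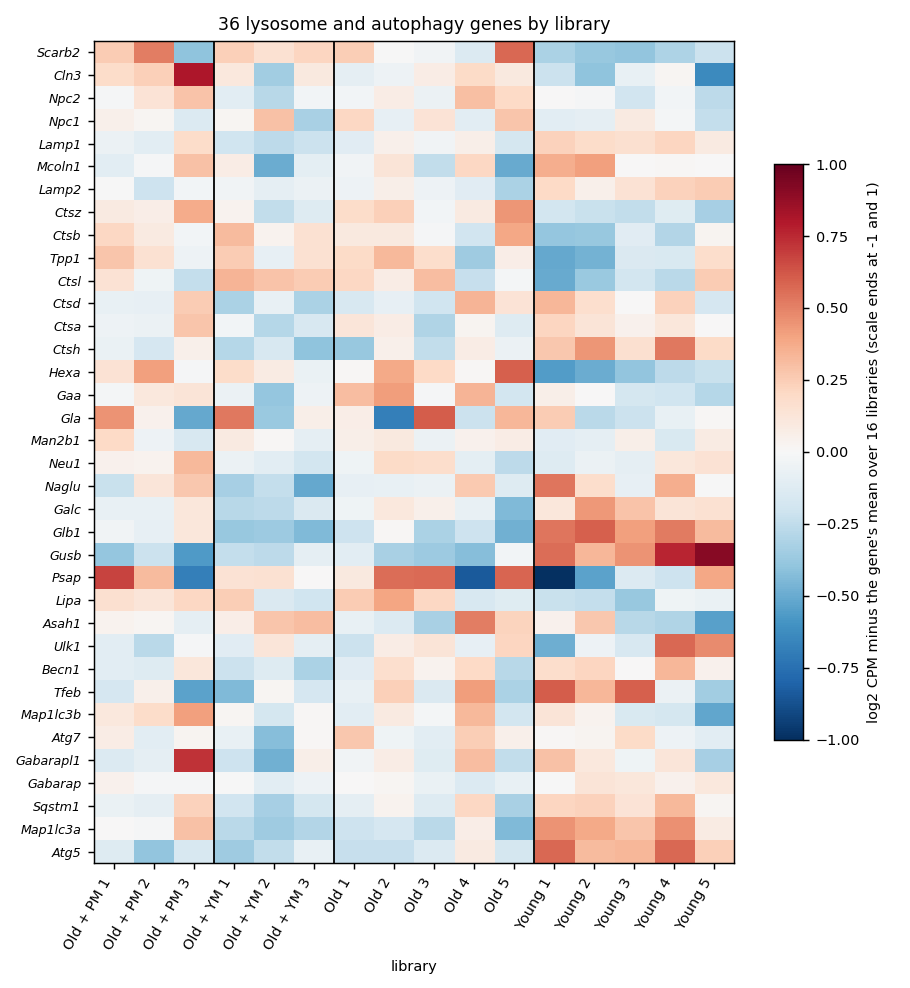
Log2 CPM (prior count 2) minus each gene's mean over the 16 libraries, for the 36 genes (rows, ordered by role and fold change in Old against Young) in each library (columns). Red is above and blue below the gene's mean, with the scale ending at -1 and 1; Gusb, Glb1, Map1lc3a and Atg5 are red in the Young columns and mostly blue in the aged ones, and Psap is darkest blue in Young 1, Old 4 and Old + PM 3.

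Immune cell and clock genes also differed between Old and Young. Of 21 tested macrophage markers 16 rose in Old (76.2%, beside 6.47% of all tested genes), with a median log2 fold change of 1.73 (0.97 without Old 5), and their summed level was 276 to 1705 CPM in Old against 226 to 268 CPM in Young libraries. Cd163, 1 of the 22 macrophage markers listed, was thinly counted, with no count in 7 of the 16 libraries and at most 11 counts, in Old 5. The count of 16 was 10 without Young 1 and 9 without Young 4, and 5 by limma-voom. Without Old 5 it was 12, with 11 higher and 1 lower in Old, beside 8.29% of all genes called in that fit. Without Old 5 and Young 5 together it was 11, with 10 higher and 1 lower. The 3 genes that rose, Hexa, Ctsz and Scarb2, were each highest among Old libraries in Old 5, and Hexa and Ctsz passed without it. For B and plasma cells 3 of the 6 tested markers rose, beside 6.47% of all tested genes. The 8 listed summed to 121 to 194 CPM in Old against 7.003 to 18.5 CPM in Young libraries, with no overlap. Proximal tubule markers summed to 12186 to 16385 CPM in Old and 15081 to 17511 CPM in Young libraries, and Old 5 had the lowest sum. Of the 15, 3 were higher and 2 lower in Old, beside 6.47% and 7.13% of all tested genes. That count of 5 was 2 without Young 3, and it was 3 when Young 1, Young 2 or Old 3 was left out. The part of these cell types in the 9 changes was not tested.

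Of 10 circadian clock genes, 9 passed in Old against Young, 7 higher and 2 lower (90%, beside 13.6% of all tested genes). Their summed level was 141 CPM in Old 4 and 379 to 471 CPM in the other Old libraries, against 101 to 165 CPM in Young libraries. Old 4 was the highest Old library for Atg5, Map1lc3a and Ctsh, and the highest Old library for 15 and the lowest for 9 of the 36 genes. Without Old 4, 12 of the 36 genes passed in Old against Young (33.3%), beside 18.2% of all genes tested in that fit. Besides Ctsb, the genes gained were Lipa (log2 0.39, edgeR adjusted p = 0.0266), Tpp1 (0.40, 0.0430) and Sqstm1 (-0.30, 0.0465), while Lamp2 was lost. Without Old 5, Gaa passed (0.38, 0.0381), and Scarb2 and Lamp2 were lost. Without Old 4 and Old + PM 3 together 14 passed (38.9%), 7 in each direction, beside 20.4% of all genes, so the count rose over all genes as well as over the 36. The sources used here do not give the time of collection, and its part in the result was not tested.

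A wider set of lysosome and autophagy genes was read in the same comparison, from lists chosen with earlier results of these data known. Of 15 tested subunits of the v-ATPase, the proton pump that acidifies the lysosome, 6 fell (40%, beside 7.13% of all tested genes) and none rose, and the median log2 fold change was -0.20. The changes were largest for Atp6v0a2 (log2 -0.51, edgeR adjusted p = 0.00100) and Atp6ap1 (-0.51, 0.0136), and Atp6v1f fell by 0.44 (0.0297). The summed level of the 16 listed subunits was 3033 to 3725 CPM in Old and 4122 to 4518 CPM in Young libraries, so the groups did not overlap. The count of 6 was sensitive to single libraries: 2 passed without Old 5, Young 1 or Young 4, and 3 without Old 1, Old 2, Young 2, Young 3 or Old + PM 2. With upper quartile scaling, or with Old and Young fitted alone, 2 passed.

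Of 31 other autophagy core genes 6 fell (19.4%, beside the same 7.13%) and none rose, with a median of -0.17. Wipi2, which binds the lipid of forming autophagosomes (log2 -0.41, edgeR adjusted p = 0.00906), the membrane protein gene Vmp1 (-0.33, 0.0192) and Atg101, a subunit of the ULK1 complex (-0.53, 0.0239), had the smallest adjusted p. This count too moved with the libraries, to 1 without Old 1, to 2 without Old 5, Young 2, Young 3 or Young 4, to 3 without Old 3, and to 12 without Old 4 and Old + PM 3. Of those 12 genes, 11 fell and 1 rose.

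Among 32 other lysosomal hydrolases and cofactors 2 rose and 4 fell, beside 6.47% higher and 7.13% lower of all tested genes, with a median of -0.01. Galns, a keratan sulfate sulfatase, fell by 0.62 (edgeR adjusted p = 0.00118) and Smpd1, acid sphingomyelinase, by 0.42 (0.0114), while Naaa, which hydrolyses N-acylethanolamines, rose by 1.18 (0.00399). The other gene that rose, Ctsc, had a log2 fold change of 1.52 with all libraries and 0.78 without Old 5. In the remaining lists few genes passed, beside 13.6% of all tested genes. Abca2, a lipid transporter of lysosomes, fell among 30 membrane and sorting genes (3.33%), and Calcoco1 rose among 15 selective autophagy receptors (6.67%). Mtor fell (-0.46, edgeR adjusted p = 0.0127) while Fnip2 rose (0.47, 0.0300) among 29 genes of the TFEB family and mTORC1 nutrient sensing (6.9%). The medians of these lists were -0.13, 0.10 and -0.06. Calcoco1 and Mtor passed in all 27 alternative analyses. Without Old 4, 2 receptors, 2 membrane and sorting genes and 6 nutrient sensing genes passed. The nutrient sensing count was 1 without Old 2 or Old 3, where Fnip2 was lost. Fnip2 was also lost without Young 1, without Young 2, and without Old 5 and Young 5 together. Abca2 was lost without Young 2, Young 4, Old + PM 2 or any Old library other than Old 4. It was also lost with upper quartile scaling, by limma-voom, and with Old and Young fitted alone.

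**Figure D4:**
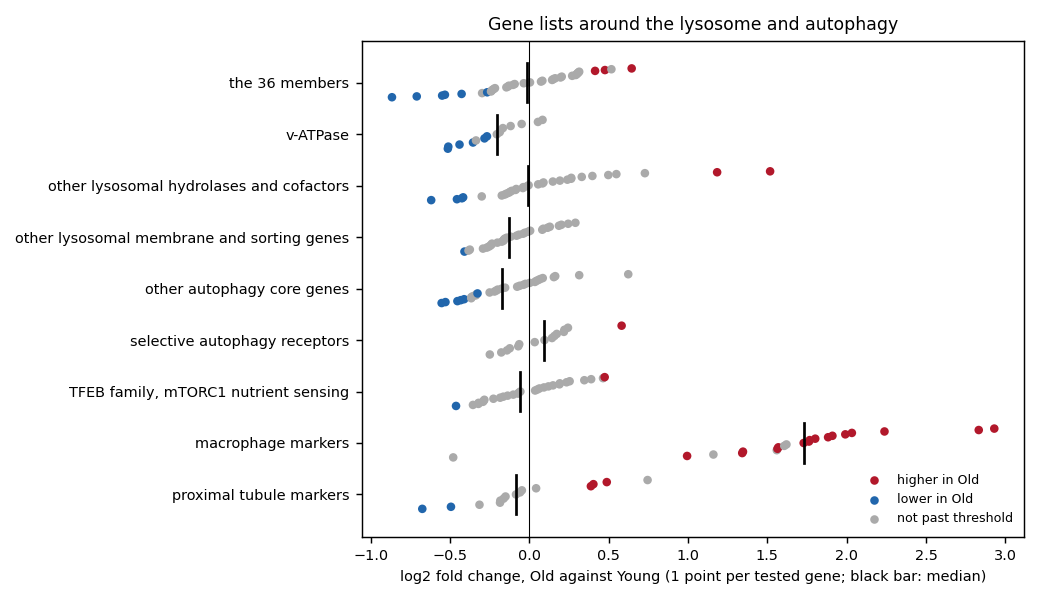
Log2 fold change in Old against Young (horizontal axis) of every tested gene of the 36, of 6 further lysosome and autophagy lists, and of macrophage and proximal tubule markers (1 row per list, 1 point per gene, black bar at the median). The medians of the v-ATPase (-0.20) and autophagy core (-0.17) lists lie left of 0, that of the macrophage markers (1.73) far to the right, and that of the 36 genes at -0.02.

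Promoters were read for the CLEAR element, through which TFEB acts, to show which of the 36 genes carry it. Windows of 250 bases upstream of the start came from RefSeq (GRCm38.p6), where 30 of the 36 genes had 35 promoters in all. A gene was counted if any of its promoters held a match. Both strands were searched for the E-box CACGTG and for the CLEAR core TCACGTGA, which contains that E-box. The E-box was found in 12 of the 30 (40%), beside 9.71% of the 11315 tested genes with a promoter and 6.86% of all 27025 genes in the promoter table. The CLEAR core was found in 5 (16.7%), beside 1.7% and 0.907%. A match is a description of the letters and not of binding.

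Of the genes that fell, Glb1 and Atg5 held an E-box, at 48 and 14 bases before the RefSeq start, and 2 others with a promoter did not. That is 50% of 4, beside 10 of the 23 genes with a promoter that did not pass (43.5%). None of the 3 genes that rose held an E-box, and the 5 genes with the CLEAR core, Ctsa, Ctsd, Gla, Mcoln1 and Cln3, did not pass in Old against Young. The stretches that carry the element are shown for the 2 called genes and, for contrast, for 4 of the 5 uncalled genes with the core. Ctsa and Cln3 held the core only in RefSeq promoter 2, and their promoter 1 held no E-box. The 4 core stretches shown lie within the GENCODE M21 bounds of their genes. Lamp1 held 4 E-boxes and no core. Capitals mark the E-box, or the whole core where it is present.
Glb1 (chr9:114401018-114401047, plus strand): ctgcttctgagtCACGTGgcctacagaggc
Atg5 (chr10:44268313-44268338, plus strand): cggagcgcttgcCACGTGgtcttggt
Ctsa (chr2:164833749-164833772, plus strand): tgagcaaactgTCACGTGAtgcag
Ctsd (chr7:142387908-142387937, minus strand): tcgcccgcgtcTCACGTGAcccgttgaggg
Mcoln1 (chr8:3500462-3500491, plus strand): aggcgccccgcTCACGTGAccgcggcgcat
Cln3 (chr7:126583340-126583369, minus strand): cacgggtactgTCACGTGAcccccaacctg
Neither Glb1 nor Atg5 holds the whole core. Both genes fell in Old, while the log2 fold changes of the 4 core-bearing genes shown were -0.13 for Ctsa, -0.10 for Ctsd, -0.24 for Mcoln1 and 0.29 for Cln3.

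The herbal formulas were then compared with the untreated Old kidneys, to ask whether treatment changed these genes. Old + PM and Old + YM share the Old libraries as their control. With PM, 0 of the 36 genes passed by edgeR, DESeq2 or limma-voom, beside 0% of all tested genes by edgeR, and 3 had an unadjusted p under 0.05 (8.33%, beside 6.16% of all genes). The log2 fold changes were positive for 21 (58.3%, beside 46.2% of all genes) and negative for 15, with a median of 0.02. No gene had PM libraries apart from the Old range, beside 4.02% of all genes (1.92% higher and 2.1% lower).

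With YM, 0 of the 36 passed by any of these tools, beside 0.0205% of all tested genes by edgeR, and 4 had an unadjusted p under 0.05 (11.1%, beside 9.47%). The log2 fold change was negative for 28 of the 36 genes and positive for 8 (22.2%, beside 45.5% of all genes), and the median was -0.12, against -0.03 over all tested genes. Lamp1 and Naglu were the 2 genes (5.56%, beside 9.12% of all) whose YM libraries did not overlap with Old, both lower with YM; over all genes 3.95% were lower and 5.16% higher without overlap. Naglu had 27.1, 28.9 and 23.9 CPM in Old + YM and 32.3, 32.5, 32.7, 41.1 and 31.2 CPM in Old libraries, a log2 fold change of -0.35 (95% interval -0.68 to -0.02; edgeR adjusted p = 0.502). Lamp1 had 1234, 1180.2 and 1222 CPM in Old + YM, below the lowest Old library at 1255 CPM, with a log2 fold change of -0.18 (adjusted p = 0.576).

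**Figure D5:**
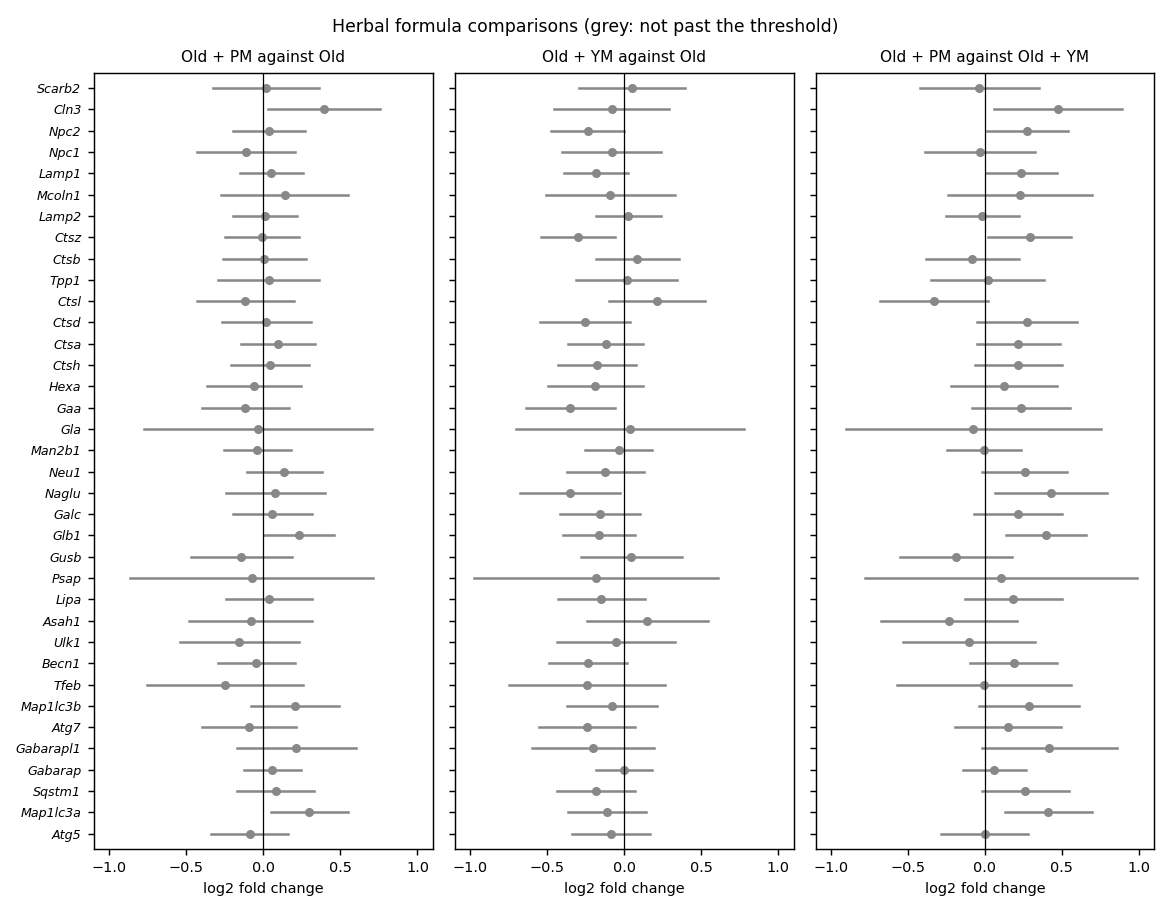
Log2 fold changes with 95% confidence intervals of the 36 genes (same order as for ageing) in 3 panels: Old + PM over Old, Old + YM over Old, and Old + PM over Old + YM. All points are grey because none passed; the points of Old + YM lie mostly left of 0 (28 of 36), those of Old + PM against Old + YM mostly right of it (24 of 36), and every interval stays within -1 and 1.

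The 9 genes that differed with age did not pass in either treatment comparison. Glb1 had 94.95, 91.9 and 105 CPM in Old + PM and 74.7, 75.6 and 71.3 CPM in Old + YM, next to the Old mean of 82.8 CPM and the Young mean of 135 CPM. All 3 PM and all 3 YM libraries stayed below the lowest Young library. Its log2 fold change against Old was 0.23 with PM (95% interval 0.00 to 0.46; edgeR adjusted p = 0.801) and -0.16 with YM (-0.40 to 0.07; adjusted p = 0.652).

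Map1lc3a had 118, 116 and 144 CPM in Old + PM and 97.4, 91.6 and 95.8 CPM in Old + YM. Old + PM 3 lay within the Young range and the other PM and all YM libraries below it. The log2 fold change against Old was 0.30 with PM (95% interval 0.05 to 0.55; edgeR adjusted p = 0.790) and -0.11 with YM (-0.36 to 0.14; adjusted p = 0.798).

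Gusb had 15.3, 17.2 and 13.4 CPM in Old + PM and 16.95, 16.6 and 18.8 CPM in Old + YM, all under the Young range. Atg5 had 52.1, 43.3 and 50.9 CPM in Old + PM and 44.5, 47.9 and 54.1 CPM in Old + YM, also under it. Ctsh had 228, 212 and 247 CPM in Old + PM and 196, 213 and 181 CPM in Old + YM. As with Gusb and Atg5, no treated library reached the lowest Young library.

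Lamp2 had 509.6, 445 and 503 CPM in Old + PM and 500.0, 481 and 492 CPM in Old + YM, all below the Young libraries. Hexa had 38.9, 46.9 and 34.9 CPM in Old + PM and 40.1, 37.2 and 33.7 CPM in Old + YM, all above the Young libraries. For both genes the treated libraries overlapped with Old. Among the 9 genes the largest differences from Old by size were 0.30 for Map1lc3a with PM and -0.30 for Ctsz with YM.

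Ctsz had 101, 99.7 and 123 CPM in Old + PM and 97.6, 80.3 and 86.8 CPM in Old + YM. All PM libraries lay above the Young range, and 2 of the 3 YM libraries, YM 2 and YM 3, lay within it. The YM difference from Old was -0.30 on the log2 scale (95% interval -0.54 to -0.06; unadjusted p = 0.0180 and adjusted p = 0.443 by edgeR), the smallest p of the 36 genes with YM. Scarb2 had 106, 127 and 67.3 CPM in Old + PM and 105, 98.9 and 103 CPM in Old + YM. Old + PM 3 was below every Young library and the other treated libraries were above all of them. The 9 genes were picked for their difference between Old and Young, so where the treated libraries lie against Young is a description. None of the 9 had treated libraries apart from Old.

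Between the formulas, Old + PM against Old + YM, 0 of the 36 passed by edgeR, DESeq2 or limma-voom, beside 0% of all tested genes by edgeR, and 7 had an unadjusted p under 0.05 (19.4%, beside 12.8% of all genes). The log2 fold change was positive, higher with PM, for 24 genes (66.7%, beside 51.5% of all genes) and negative for 12, with a median of 0.18. With 3 libraries on each side, 13 genes were higher and 2, Asah1 and Ctsl, lower without overlap (41.7% in all, beside 23.8% of all tested genes, 11.9% in each direction). The smallest p belonged to Glb1, with a log2 fold change of 0.40 (95% interval 0.14 to 0.65; unadjusted p = 0.00444 and adjusted p = 0.260 by edgeR). Map1lc3a followed at 0.41 (0.13 to 0.69; adjusted p = 0.272), and Cln3 at 0.47 and Naglu at 0.43 had larger differences with wider intervals. Cln3 had 21.3, 22.2 and 32.9 CPM in Old + PM and 20.2, 14.7 and 20.02 CPM in Old + YM libraries, and without Old + PM 3, the highest, its difference was 0.24.

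The intervals say how large a change these libraries leave possible. In each of the 3 comparisons with treated kidneys all 36 intervals lay within -1 and 1 on the log2 scale. Within -0.5 and 0.5, or 1.41-fold, lay 28 of the 36 for Old + PM against Old, 24 for Old + YM against Old and 14 for Old + PM against Old + YM. Psap had the widest interval in all 3, -0.87 to 0.71 for PM against Old. Its PM libraries had 2662, 2082 and 1038 CPM and its YM libraries 1851, 1852 and 1675 CPM, so Old + PM 3 was far below the others. Macrophage markers summed to 407 to 751 CPM in Old + PM and 353 to 455 CPM in Old + YM libraries. B and plasma cell genes summed to 80.5 to 93.5 CPM in Old + PM, 179.8 to 408 CPM in Old + YM and 121 to 194 CPM in Old libraries, without overlap between PM and YM or between PM and Old. The part of either cell type in these comparisons was not tested. Old + PM 3 was the highest PM library for 20 and the lowest for 12 of the 36 genes.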

How the data were processed

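Kidney RNA of 16 libraries was measured by 3' sequencing (Trizol extraction, 500 ng of RNA and the Lexogen QuantSeq kit, per the labels' protocols). Raw counts for each gene symbol were deposited, which the authors made with Bowtie2 and bedtools on the mm10 build, per the submitters' processing notes; the sources used here do not give versions, annotation, strand setting or how multiply aligned reads were handled. 3' counts do not depend on transcript length, but reads that fall in repeated or overlapping ends can be split or lost.

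In R 4.3.3, edgeR 4.0.16 kept 14665 genes and removed 26214 by filterByExpr, with a minimum count of 10 and 3 as the smallest group, and scaled library sizes by TMM. All 16 libraries entered a single robust quasi-likelihood model of group. The 4 comparisons (Old + PM with Old, Old + YM with Old, Old + PM with Old + YM, and Old with Young) were tested two-sided, with Benjamini-Hochberg adjustment over the 14665 genes of each at 0.05. The 95% intervals use the total degrees of freedom of the fit, the residual ones plus those edgeR adds by sharing information between genes. The analysis code was tested on simulated counts. Coordinates are those of GENCODE M21 (GRCm38), where all 36 symbols were found, and promoters those of RefSeq.

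Alternatives were DESeq2 1.42.0, limma-voom (limma 3.58.1), other scalings and filters, only the groups compared, a replicate block and each library left out. The 36 genes and the lists around them were chosen with earlier results of these data known. Every gene of the 36 may be named, with full statistics for those that passed. Up to 3 genes that passed, those with the smallest adjusted p, are named from each list; Ctsc, Pigu, Nelfcd and Cd163 were named after their values were seen.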

Additional observations from a re-analysis of the deposited data

Results flagged for a closer look

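Within groups of 5 libraries, 82 sets of values were screened for 1 library far from the other 4 by Dixon's criterion, and 6 stood out; chance gives about 1 in 20. Of the 36 genes, Naglu reached 41.1 CPM in Old 4, with 31.2 to 32.7 CPM in the other Old libraries. Atg5 reached 60.6 CPM in Old 4, with 48.3 to 51.6 CPM in the others. The summed level of circadian clock genes in Old 4 was 141 CPM, with 379 to 471 CPM in the other Old libraries. In Old 5 the macrophage genes summed to 1705 CPM, with 276 to 511 CPM in the others, and the T and NK cell genes to 48.1 CPM, with 3.73 to 5.94 CPM in the others. The B and plasma cell genes summed to 7.003 CPM in Young 4, with 15.5 to 18.5 CPM in the other Young libraries.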

How the results depend on the processing

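For Old against Young, 9 of the 36 genes passed with the settings of the report. The count was 8 to 10 under every other scaling, filter and tool tried, 7 to 12 with 1 library left out, and, in 2 analyses chosen after seeing the data, 8 without Old 5 and Young 5 and 14 without Old 4 and Old + PM 3. No gene changed direction among those called. Gusb, Glb1, Atg5, Map1lc3a, Ctsh and Hexa passed in all 27 alternatives, Ctsz in 26, Scarb2 in 20 and Lamp2 in 4. For the 3 comparisons with treated kidneys the count was 0 in every alternative. Upper quartile scaling split the calls 5 higher and 5 lower among the 36, and 1104 higher and 758 lower among all genes, against 949 and 1046 with TMM. The number of all genes called in Old against Young, 1995, was 1235 without Young 4, 1208 without Old 5 and 3072 without Old 4 and Old + PM 3. For Old + YM against Old, 3 genes passed by edgeR, 49 by DESeq2 and 20 when the 2 groups were fitted alone; for Old + PM against Old + YM it was 0, 58 and 13. Replicate numbers are shared between groups, and the deviations of same-numbered libraries correlated between -0.0862 and 0.158 over 14 pairs. The threshold set for these correlations was 0.1. Replicates 4 (0.126) and 5 (0.13) of Old and Young and replicate 1 of Old + PM and Old (0.158) exceeded it, and the other pairs did not. The numbers were not taken to pair libraries in the main fit, and a replicate block was fitted as an alternative. With the replicate block 10 of the 36 genes passed in Old against Young and 2105 genes in all. The autophagy core count of 6 was 3 without the low-count filter or with Old and Young fitted alone, and the macrophage count of 16 was 7 in that last fit. Depth limits Gla most, at 17 to 41 counts per library, and counts say nothing about protein or lysosomal activity.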
